A study of Mus musculus with 146 samples.

Results

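The libraries described here come from the prefrontal cortex of female mice that inhaled ethanol vapor or air: 10 from the ethanol group (CIE, for chronic intermittent ethanol) and 9 from the Air group, 19 of the 146 libraries of the series. They were chosen by the sex, treatment and tissue letters of the library titles, and all 19 were used. The question of the comparison is which genes differ in level between ethanol-exposed and control females. All were C57BL/6J mice that first had 20 days of sessions of 2 h, on 5 days a week over 4 weeks, with a tube of 15% ethanol beside a tube of water. The CIE mice next received pyrazole (68.1 mg/kg), a blocker of alcohol dehydrogenase, together with a dose of ethanol (1.75 g/kg), and then vapor for 16 h and none for 8 h over 4 days. Air mice had the same dose of pyrazole in saline and chambers with air, so that the groups differ in injected ethanol as well as in vapor and share pyrazole and ethanol drinking. After 72 h of rest came 5 days of drinking sessions. There were 4 such cycles and a last exposure of 4 days, and tissue was taken 1 week after it. The labels give no age.

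The prefrontal cortex plans and restrains behavior, and repeated cycles of intoxication and withdrawal are known to alter its neurons, its myelin and its immune cells. Class I histocompatibility molecules, made of a heavy chain such as H2-D1 or H2-K1 and the light chain B2m, show peptides to T cells at the cell surface, and interferons and NF-kB drive their genes. Microglia are the resident immune cells of the brain, and chemokines such as Ccl5 draw leukocytes into tissue.

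The libraries were made by TagSeq, which reads the 3′ ends of mRNA, and each value is a number of reads counted on a gene. Levels are given in CPM, the usual scale on which every library has the same total of reads on genes. CIE libraries had 1986405 to 2789749 such reads (median 2334488) and Air libraries 1117393 to 2695311 (median 2099612), with the lowest in Air mouse 28. At this depth a gene at 5 CPM stands on about 10 reads per library. Markers of cortical neurons were present: Snap25, a synaptic release protein of all neurons, lay between 2034 and 4148 CPM, and Slc17a7, the vesicular glutamate transporter of cortical projection neurons, between 239.3 and 631.6 CPM. The lowest Slc17a7 was in Air mouse 40. Xist, the RNA that silences an X chromosome in females, lay between 171.8 and 440.4 CPM, so every library had the marker of the labelled sex.

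Libraries stood apart from each other in ways that the treatment does not name. Alb, the serum albumin made by liver, was above 50 CPM in 8 libraries, CIE mice 22, 25, 31, 33 and 35 and Air mice 28, 38 and 40. Its CIE values ran from 1.51 to 298.0 CPM with a median of 113.9, and its Air values from 1.95 to 457.3 CPM with a median of 3.83. Alas2, the heme synthesis enzyme of red cell precursors, was above 50 CPM in 4 libraries, CIE mouse 23 and Air mice 26, 29 and 40. Neither gene passed 50 CPM in CIE mice 21, 24, 32 and 34 and Air mice 27, 30, 37 and 39. Alb and Alas2 had log2 fold changes of 0.73 (SE 0.98) and -1.71 (SE 0.92) between CIE and Air. Their mean levels gave two-sided exact permutation p values over mice of 0.512 for Alb and 0.174 for Alas2 (both 0.977 after adjustment over the 8 library measures tested).

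In the 8 libraries with high Alb, 40 of the 12283 genes tested, Alb itself included, were above their highest value in the 11 others and 0 were below their lowest. They include Apoa1, a plasma lipoprotein, Ttr, the thyroxine carrier of liver and choroid plexus, and Oxt and Pmch, neuropeptides of the hypothalamus. Pmch was at 17.9 CPM or more in these libraries and at most 8.10 CPM in the others. In the 4 libraries with high Alas2, 37 of the 12283 genes tested were above all 15 others and 3 were below. Those above include Alas2 itself, which defines the split, and Tent5c, Rsad2, Cd24a and Bpgm. How many genes would separate by chance in splits of these sizes was not worked out. Bpgm, an enzyme that sets the oxygen affinity of hemoglobin, was at 359.5 CPM or more against at most 65.3 CPM. In blood libraries of the same females the medians were 16500 CPM for Alas2, 19400 for Tent5c, 15000 for Rsad2 and 21600 for Bpgm, and Alb was at 0 in all 19 of them.

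A further pattern ran along the first principal component, which held 27.7% of the variance and had Doc2g, Th and Cdhr1 among its leading genes, all genes of the olfactory bulb. The summed olfactory bulb markers were 1045 CPM in Air mouse 40, 629.0 in CIE mouse 34 and 586.3 in Air mouse 37, and 34.7 to 292.1 in the other libraries. The second component held 11.8% and was led by Alb and Ttr. ERCC spike-ins added up to more than 0.1% of gene reads in 4 libraries, CIE mice 23 and 31 and Air mice 26 and 28. The plot of library classes shows the splits by Alb, Alas2 and olfactory bulb markers, and each of these and the spike-in split has libraries of both treatments. The part of each of them in the comparisons below was not tested beyond the values given with and without those libraries.

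**Figure D1:**
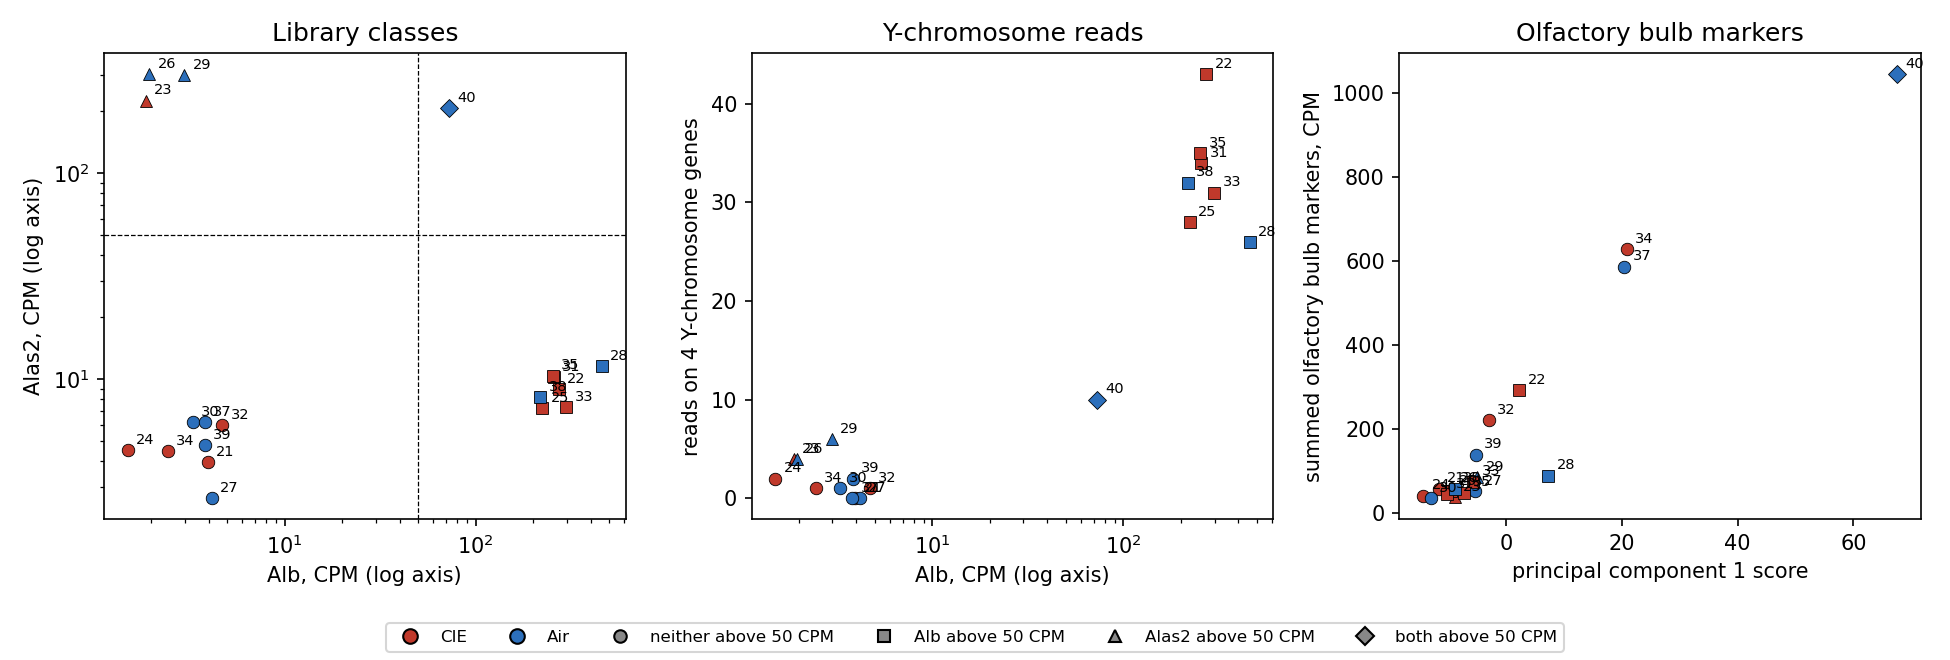
Each point is a female prefrontal library, labelled by mouse, red for CIE and blue for Air. The left panel plots Alas2 against Alb in CPM on log axes with lines at 50 CPM, the middle panel the reads on 4 Y-chromosome genes against Alb, and the right panel the summed olfactory bulb markers in CPM against the first principal component. The 8 libraries with high Alb had 10 to 43 Y-chromosome reads and the others 0 to 6, and Air mouse 40 stands alone at 1045 CPM of olfactory bulb markers.

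Between CIE and Air, the gene with the smallest p was H2-D1, of class I antigen presentation, which was higher in CIE, and the smallest p among genes lower in CIE was that of the immediate early gene Fosl2. None of the 12283 genes tested passed an adjusted p of 0.05 in edgeR (0%), where the smallest adjusted p was 0.605 for H2-D1. At an unadjusted p under 0.05 there were 517 genes (4.21%), 194 of them higher in CIE (1.58%) and 323 lower (2.63%), where 614 would be met if p values were spread evenly. DESeq2 called 2 of the 28413 genes it was given (0.00704%), Ccl5 and H2-D1, both higher in CIE, and limma on the authors' log2 values called 0, with 547 and 576 genes at an unadjusted p under 0.05. Of the genes tested, 50.4% were higher in CIE, which is the share to set beside the counts of each gene list below. The median log2 fold change was 0.000947, and 5% of genes lay below -0.277 and 5% above 0.22. An absolute log2 fold change above 1 was seen in 26 genes, and 0 genes had groups that did not overlap.

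**Figure D2:**
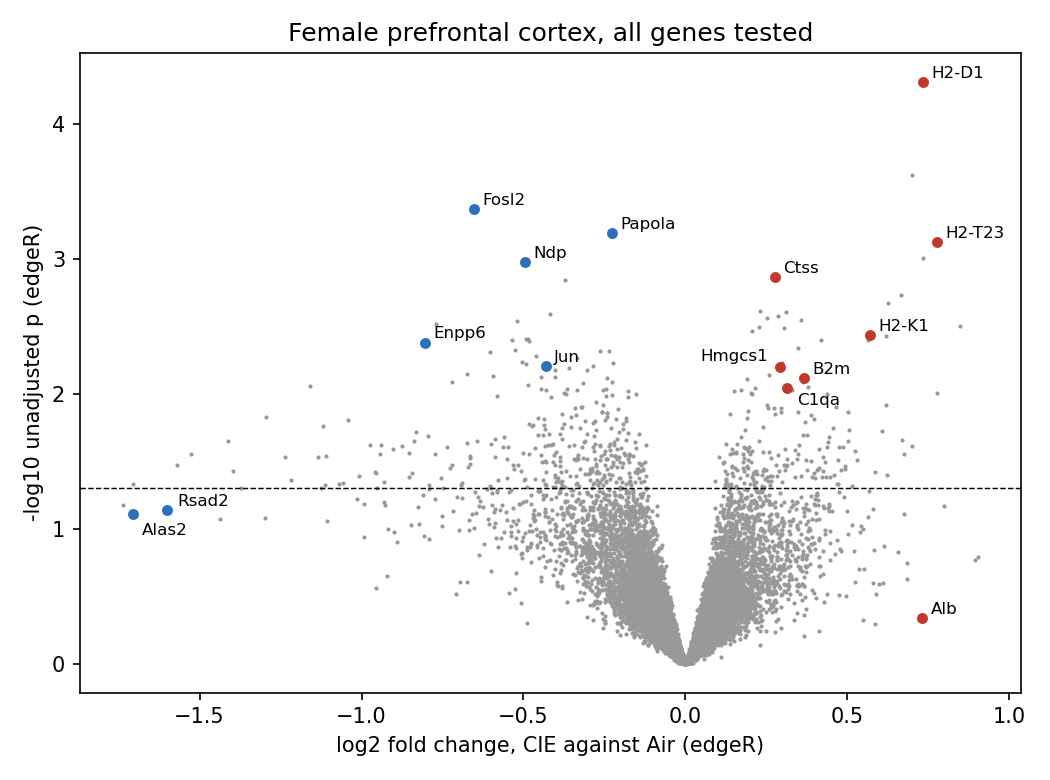
Each point is a gene tested, with the log2 fold change of CIE against Air on the horizontal axis and the unadjusted p of edgeR, as -log10, on the vertical axis. The dashed line is at an unadjusted p of 0.05. H2-D1 has the smallest p, and Alas2 and Rsad2 have large negative fold changes and lie below the line.

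H2-D1 (ENSMUSG00000073411.12, chr17:35262730-35267499, + strand) encodes a heavy chain of class I molecules that is made by most cells. Its level was 38.5 to 102.9 CPM in CIE, with a median of 60.7, and 30.5 to 54.2 CPM in Air, with a median of 37.1. All 10 CIE libraries were above the Air median and 7 were above every Air library, while CIE mice 23, 31 and 33 lay within the Air range. The means were 63.1 ± 18.0 CPM (SD, n = 10) in CIE and 38.3 ± 8.05 CPM (SD, n = 9) in Air. The log2 fold change was 0.73 (SE 0.15), with an unadjusted p of 4.93e-05 and an adjusted p of 0.605 in edgeR, and the adjusted p was 0.0225 in DESeq2. The p covers the spread between mice. Over the 34 other settings tried the log2 fold change of H2-D1 ran from 0.63 to 1.17 and its adjusted p from 0.0225 to 0.991. In bulk tissue, a change in the number of cells of a type and a change in RNA per cell cannot be told apart.

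By the group means, the difference in H2-D1 was larger where neither Alb nor Alas2 was high, but whether it differs between these classes was not tested. In those libraries the mean was 77.6 ± 17.9 CPM (SD, n = 4) in CIE and 34.6 ± 6.68 CPM (SD, n = 4) in Air. With Alb above 50 CPM it was 56.3 ± 8.37 CPM (SD, n = 5) in CIE and 43.8 ± 10.9 CPM (SD, n = 3) in Air. Alas2 was high in a single CIE library, which leaves no spread for a comparison within that class. A fit to the 8 libraries with neither gene high gave H2-D1 a log2 fold change of 1.17 with an adjusted p of 0.0412 in edgeR, and a fit to all 19 with a covariate for either marker high gave 0.73. H2-D1 did not pass an adjusted p of 0.05 in that covariate fit, without the high-Alb libraries or without the high-Alas2 libraries.

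H2-K1, B2m and H2-T23 also had positive log2 fold changes. H2-K1, the second classical heavy chain of this strain, was at 32.9 to 89.0 CPM in CIE (median 61.5) and 28.6 to 79.7 CPM in Air (median 41.3). The highest Air value was that of mouse 28, the library of lowest depth and highest Alb, and 9 of 10 CIE libraries were above the Air median. Its log2 fold change was 0.57 (SE 0.18), with an unadjusted p of 0.00367 and an adjusted p of 0.95 in edgeR, and it was 1.01 in the 8 libraries with neither Alb nor Alas2 high. B2m, the light chain shared by all class I molecules, was at 96.8 to 177.7 CPM in CIE (median 120.9) and 78.6 to 153 CPM in Air (median 95.7). All 10 CIE libraries were above the Air median of B2m, but Air mouse 28 was above 9 of them. The log2 fold change of B2m was 0.37 (SE 0.13), with an unadjusted p of 0.00773, and it was 0.67 in the 8 libraries with neither Alb nor Alas2 high. H2-T23, a nonclassical heavy chain that natural killer cells recognise, was at 3.52 to 7.99 CPM in CIE and 1.86 to 4.78 CPM in Air, and 8 of 10 CIE libraries were above every Air library. Its log2 fold change was 0.78 (SE 0.20), with an unadjusted p of 0.000759, but it was 0.34 without the libraries of high Alb or Alas2. H2-T23 had 7 to 17 reads in CIE libraries and 5 to 11 in Air libraries, and the filter on low counts asks for about 10 in enough libraries. It was thus kept mostly by its CIE libraries, and its p rests on that selection. The filter left it out in amygdala and in hypothalamus. Class I genes are near copies of each other and TagSeq reads come from their 3′ ends, so how reads were shared among H2-D1, H2-K1 and H2-T23 is uncertain.

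The promoters of these genes are shown because H2-D1, H2-K1 and B2m were all higher in CIE. They are the 250 bases before the gene start in RefSeq, build GRCm38.p6, written 5′ to 3′ on the strand of the gene, at chr17:35262844-35263093 (+ strand) for H2-D1, chr17:34000348-34000597 (- strand) for H2-K1 and chr2:122147437-122147686 (+ strand) for B2m. In the annotation used for the counts H2-D1 starts further upstream, so its window lies inside the gene as located above. Capitals mark matches to GGGATTCCC, a form of the NF-kB motif, in H2-D1 and H2-K1, and to GAAANNGAA, an interferon response motif, in B2m.
H2-D1: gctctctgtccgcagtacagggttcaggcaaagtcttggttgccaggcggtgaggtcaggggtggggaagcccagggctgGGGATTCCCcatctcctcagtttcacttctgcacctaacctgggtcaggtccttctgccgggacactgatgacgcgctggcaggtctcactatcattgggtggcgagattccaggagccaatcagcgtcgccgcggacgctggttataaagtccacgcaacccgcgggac
H2-K1: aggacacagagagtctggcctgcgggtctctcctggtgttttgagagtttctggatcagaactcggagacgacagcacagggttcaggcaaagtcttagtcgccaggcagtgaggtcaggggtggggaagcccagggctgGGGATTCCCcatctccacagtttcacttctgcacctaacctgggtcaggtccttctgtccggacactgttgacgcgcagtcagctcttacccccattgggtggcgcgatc
B2m: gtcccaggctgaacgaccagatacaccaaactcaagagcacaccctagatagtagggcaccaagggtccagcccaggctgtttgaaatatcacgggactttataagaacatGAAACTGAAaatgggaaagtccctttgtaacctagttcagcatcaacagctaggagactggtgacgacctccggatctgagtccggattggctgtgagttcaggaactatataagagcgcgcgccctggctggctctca
On either strand, GGGATTCCC was found in 99 of 32851 promoters of the same length (0.301%) and GAAANNGAA in 2342 (7.13%). H2-D1 and H2-K1 had 1 match each to GGGATTCCC and 0 to GAAANNGAA, and B2m and H2-T23 had 1 match each to GAAANNGAA and 0 to GGGATTCCC. Of 5 genes asked for, 4 had an entry, and Ccl5 had none. The genes and motifs were chosen after the expression values were seen, and a match describes the letters in the window. Other forms of either motif were not searched for. A count of 0 therefore covers these exact patterns only and does not mean that a window lacks an NF-kB or interferon response motif.

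Ccl5 (ENSMUSG00000035042.2, on chromosome 11) encodes a chemokine made by T cells, natural killer cells and activated glia. It was left out of the fit by the filter on low counts, since too few libraries had enough reads, and it had 172 reads in all of CIE and 25 in all of Air. Its level was 1.79 to 14.7 CPM in CIE, with a median of 5.84, and 0 to 2.93 CPM in Air, with a median of 1.48. All 10 CIE libraries were above the Air median and 8 were above every Air library; CIE mice 22 and 33 lay within the Air range. Without the filter, edgeR gave Ccl5 a log2 fold change of 2.52 (SE 0.45), an unadjusted p of 7.11e-06 and an adjusted p of 0.155. DESeq2 gave 2.55 with an adjusted p of 0.00527. Over the settings that tested it, the log2 fold change ran from 2.39 with limma on the authors' log2 values to 3.38 in the 8 libraries with neither Alb nor Alas2 high, and the adjusted p from 0.00326 to 0.834.

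By class, Ccl5 averaged 12.8 ± 2.30 CPM (SD, n = 4) in CIE and 1.20 ± 0.94 CPM (SD, n = 4) in Air where neither marker was high. With Alb above 50 CPM the means were 3.54 ± 1.45 CPM (SD, n = 5) in CIE and 1.09 ± 0.96 CPM (SD, n = 3) in Air. The 4 highest Ccl5 values, 14.7, 14.1, 12.8 and 9.57 CPM, were those of CIE mice 34, 32, 21 and 24, which make up the CIE libraries with neither marker high. In 4 edgeR fits that kept Ccl5 its adjusted p was under 0.05, with log2 fold changes of 3.38 in the 8 libraries with neither marker high (adjusted p 0.00634), 2.98 without the high-Alb libraries (0.00326), 2.50 with a covariate for either marker high (0.0317) and 2.69 with a covariate for each marker (0.00752). The filter on low counts asks for fewer libraries with reads when groups are smaller or covariates are added, and so Ccl5 was tested in these fits. Only CIE libraries had 10 or more reads of Ccl5, up to 36, and Air libraries had 0 to 6, so it came through the filter by its CIE libraries alone. These 4 fits were not run without the filter, so their adjusted p values for Ccl5 rest on that selection. The filter also kept Ccl5 with a covariate for mouse number, at a log2 fold change of 2.51 (adjusted p 0.5 in edgeR). With all 4 prefrontal groups fitted together it was also kept, at 2.52 (adjusted p 0.391). Neither of those fits called Ccl5.

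Blood leukocytes express Ccl5, with a median of 224 CPM in the female blood libraries, where H2-D1 was at 666 CPM. Reads of T cell markers were few in cortex: Cd3e, a chain of the T cell receptor complex, had 4 reads in CIE and 4 in Air, and Cd3d had 6 and 4. Other listed leukocyte genes had more, with 100 and 78 for Ptprc (CD45), 417 and 408 for Lyz2, 196 and 293 for S100a8 and 179 and 316 for S100a9. A single library held 134 of the S100a8 reads, and a single library held 135 of the S100a9 reads. Nkg7, a granule protein of cytotoxic cells, had 21 reads in 7 CIE libraries and 1 read in 1 Air library. The summed leukocyte markers were 34.3 to 192.7 CPM in CIE (median 84.6) and 21.4 to 236.8 CPM in Air (median 69.8), with Cd74, the invariant chain of class II molecules, as the most abundant. Of the 4 leukocyte genes tested, 3 were higher in CIE, 0 had an unadjusted p under 0.05, and the median log2 fold change was 0.035, but 0.60 in the 8 libraries with neither Alb nor Alas2 high. Whether leukocytes in the tissue or other cells gave the Ccl5 reads was not tested.

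**Figure D3:**
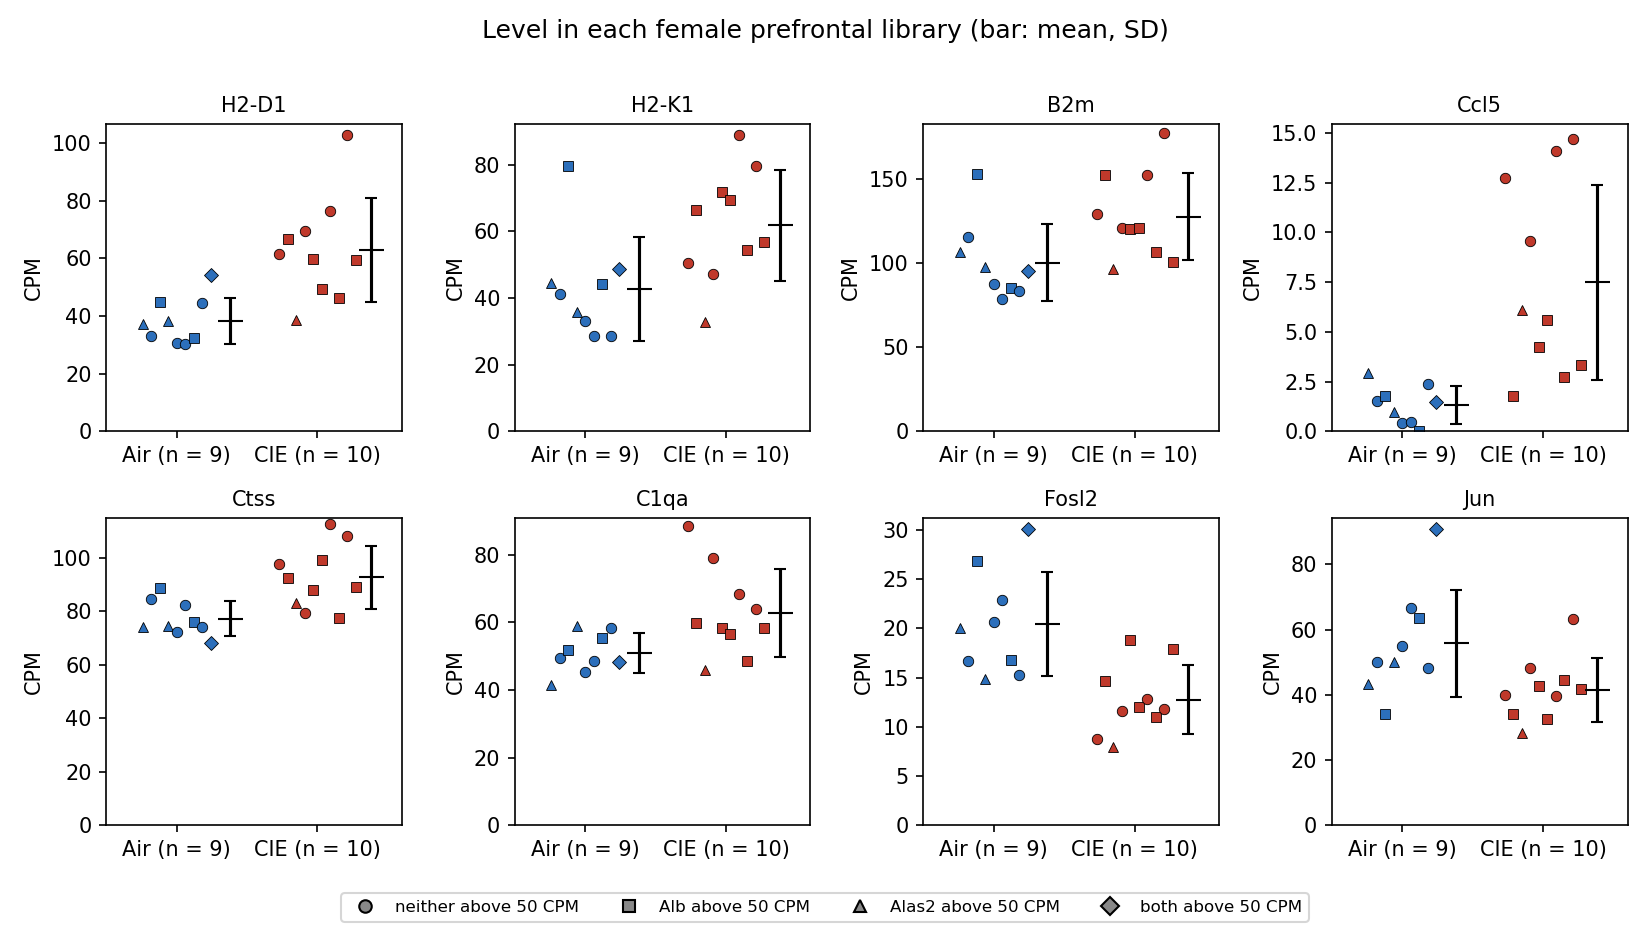
Each point is a library, in CPM, with Air at left (n = 9) and CIE at right (n = 10), the shape giving the library class and the bar the mean with SD. H2-D1 runs from 38.5 to 102.9 CPM in CIE and from 30.5 to 54.2 CPM in Air, and the 4 highest Ccl5 values are circles, CIE libraries with neither Alb nor Alas2 above 50 CPM.

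The same mice gave amygdala and hypothalamus, each with 10 CIE and 8 Air libraries, so most mice can be followed across regions. Air mouse 28 had no amygdala library and Air mouse 38 no hypothalamus library. Ccl5 was at 0 to 20.6 CPM in CIE amygdala (median 7.31) and 0 to 3.17 CPM in Air amygdala, and at 3.423 to 18.5 CPM (median 7.83) and 0 to 3.68 CPM in hypothalamus. CIE mice 22, 23 and 33 lay within the Air range in amygdala and CIE mouse 23 in hypothalamus. The 4 CIE mice with the highest values in cortex, 21, 24, 32 and 34, had 20.6, 18.2, 14.1 and 9.62 CPM of Ccl5 in amygdala and 18.5, 11.8, 11.6 and 8.18 CPM in hypothalamus. In hypothalamus CIE mouse 31, at 10.6 CPM, was above CIE mouse 34. H2-D1 was at 41.0 to 124.7 CPM in CIE amygdala and 28.9 to 70.9 CPM in Air amygdala, and at 60.0 to 123 CPM and 43.5 to 67.8 CPM in hypothalamus. The log2 fold change of H2-D1 was 0.93 (SE 0.20) in amygdala and 0.74 (SE 0.13) in hypothalamus, beside 0.73 in prefrontal cortex, with adjusted p values of 0.62 and 0.0612 in edgeR. B2m had log2 fold changes of 0.63 (SE 0.14) and 0.67 (SE 0.11), and in hypothalamus it rose in CIE with an adjusted p of 0.0298 in edgeR. Ccl5 had a log2 fold change of 2.64 (SE 0.44) in hypothalamus with an adjusted p of 0.0298 in edgeR, but there too only CIE libraries had 10 or more reads, against 0 to 6 in Air, and a fit without the filter was not run. Its prefrontal minus hypothalamus difference was -0.12 (SE 0.74), with an adjusted p of 1. These values come from the same mice and are not independent of each other.

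**Figure D4:**
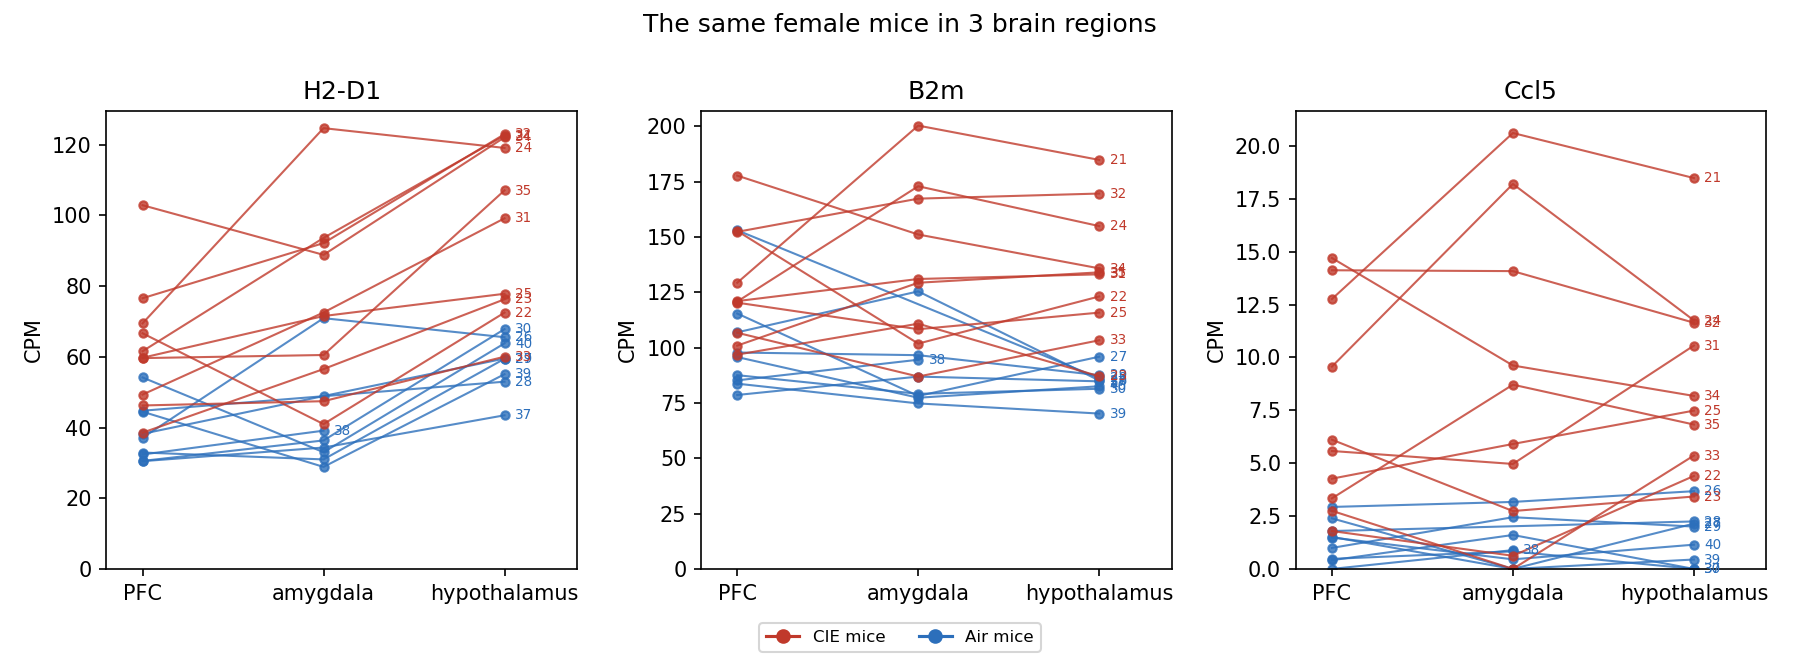
Each line is a mouse, red for CIE and blue for Air, joining its level in CPM in prefrontal cortex (PFC), amygdala and hypothalamus, with mouse numbers at the right. The highest Ccl5 line in amygdala and hypothalamus is that of CIE mouse 21, at 20.6 and 18.5 CPM.

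No gene's response was shown to differ between cortex and the other regions or between the sexes. For the region-by-CIE terms, edgeR called 0 of 13107 genes against amygdala (0%) and 0 of 13533 against hypothalamus (0%), with 443 and 589 genes at an unadjusted p under 0.05, and DESeq2 called 0 and 0, with 571 and 684. With the mouse as replicate block, over 18 mice with both regions in each case, edgeR called 0 and 0, with 606 and 851. For the sex-by-CIE term, edgeR called 0 of 13157 genes (0%), with 586 at an unadjusted p under 0.05, and DESeq2 called 0, with 716. H2-D1 had a log2 fold change of 0.28 (SE 0.19) in male prefrontal cortex, and its female minus male difference was 0.45 (SE 0.25), with an unadjusted p of 0.0741 and an adjusted p of 0.96. All 18 male libraries had Alas2 above 50 CPM, so the sexes could not be compared in libraries with neither marker high. Alb was above 50 CPM in 4 of 8 CIE males and 0 of 10 Air males (log2 fold change 4.46, SE 0.81), so the marker is unevenly divided between the male groups of this term. In the edgeR fits without a block, the smallest p for the sex term was that of the zinc finger gene Zfp512b, with log2 fold changes of -0.34 in females and 0.61 in males and an adjusted p of 0.456. For the hypothalamus term it was that of Farp1, a regulator of dendrites and synapses, with -0.12 in cortex and 0.20 in hypothalamus and an adjusted p of 1.

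Fosl2 had the smallest p among genes lower in CIE cortex, and also for the amygdala term in the edgeR fit that takes the regions as independent. It encodes a partner of Jun in the AP-1 transcription factor, which neurons make after activity. Its level was 7.99 to 18.8 CPM in CIE (median 11.9) and 14.9 to 30.1 CPM in Air (median 20.0). Every CIE library was below the Air median of Fosl2 and 8 of 10 were below every Air library, while CIE mice 25 and 35 lay in the Air range. The log2 fold change of Fosl2 was -0.65 (SE 0.16), with an unadjusted p of 0.000431 and an adjusted p of 0.95 in edgeR. In amygdala it was 0.58 (SE 0.19), and the difference between the regions was -1.23 (SE 0.25), with an unadjusted p of 1.6e-05 and an adjusted p of 0.21 in that fit. With the mouse as replicate block, and without the libraries of high Alb or Alas2, other genes had the smallest p, with adjusted p values of 0.75 and 1 in edgeR. Over the other settings in cortex Fosl2 ran from -0.78 to -0.51.

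The immediate early genes, which neurons switch on within minutes of firing, were mostly lower in CIE. Of 24 tested, 22 were lower and 5 had an unadjusted p under 0.05, all lower, where 2.63% of all genes tested were lower at that p. The list had a median log2 fold change of -0.24 beside 0.000947 over all genes tested. Jun was at 28.2 to 63.3 CPM in CIE (median 40.9) and 34.0 to 90.9 CPM in Air (median 50.1), with a log2 fold change of -0.43 (SE 0.14) and an unadjusted p of 0.00628. In 9 of 10 CIE libraries Jun was below the Air median. The nuclear receptor Nr4a1 (-0.53), the AP-1 gene Fosb (-0.53) and the zinc finger factor Egr3 (-0.19) had unadjusted p values of 0.0336, 0.0362 and 0.045. Egr1, the most abundant member, had a log2 fold change of -0.22 and an unadjusted p of 0.109, and Dusp1, a phosphatase gene, was 1 of 2 members higher in CIE, at 0.07. Air mouse 40 was the highest library for Jun, Nr4a1, Fosb and Egr1. Without it Jun was at -0.32, Nr4a1 at -0.28, Fosb at -0.18 and Egr1 at -0.099. Without the libraries of high Alb or Alas2 Jun was at -0.19 and Fosb at -0.098, and without the high-Alb libraries Nr4a1 was at -0.14 and Egr1 at -0.012. The median of the list was -0.17 without the 3 libraries of highest olfactory bulb markers and -0.18 without the libraries of high Alb or Alas2, and it came nearest to 0, at -0.11, without the high-Alb libraries.

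Microglial markers were all higher in CIE. Of 14 listed genes 12 were tested, and all 12 had positive log2 fold changes, with 5 at an unadjusted p under 0.05 and a median of 0.19, where 50.4% of all genes tested were higher and 1.58% were higher at that p. Ctss, a lysosomal protease that trims antigens, was at 77.4 to 112.5 CPM in CIE (median 90.9) and 68.3 to 88.6 CPM in Air (median 74.5). All 10 CIE libraries were above the Air median of Ctss and 6 were above every Air library. Its log2 fold change was 0.28 (SE 0.08), with an unadjusted p of 0.00137 and an adjusted p of 0.95 in edgeR. C1qa and C1qb, chains of the complement starter C1q, were at 46.1 to 88.4 and 69.6 to 126.6 CPM in CIE and at 41.5 to 59.1 and 63.4 to 118.7 CPM in Air. C1qa had a log2 fold change of 0.31 (p 0.00912), C1qb of 0.24 (p 0.0494), the membrane protein Tmem119 of 0.31 (p 0.0303) and Aif1, the marker Iba1, of 0.40 (p 0.0387), all unadjusted. Without the libraries of high Alb or Alas2 C1qa and C1qb were both at 0.58, Tmem119 at 0.39 and Aif1 at 0.18, and without the 3 libraries of highest olfactory bulb markers C1qb was at 0.12 and Tmem119 at 0.18. C1qa was highest in CIE mouse 21, and its means were 75.01 CPM in CIE and 50.5 CPM in Air where neither Alb nor Alas2 was high, and 56.4 and 51.9 CPM with high Alb. The summed microglial markers were 533 to 720.6 CPM in CIE (median 623.3) and 515.7 to 602.2 CPM in Air (median 568.2), so the groups overlap. Over the other settings the median of the list ran from 0.085, without the 3 libraries of highest olfactory bulb markers, to 0.29, without the libraries of high Alb or Alas2.

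Of 22 interferon response genes tested, 16 were higher in CIE, 4 of them at an unadjusted p under 0.05, with a median log2 fold change of 0.082. Over all genes tested 50.4% were higher and 1.58% were higher at that p. Those 4 were H2-D1, H2-K1, B2m and Ifi27, a mitochondrial protein induced by interferon, which was at 38.6 to 87.1 CPM in CIE and 31.2 to 53.8 CPM in Air, with a log2 fold change of 0.40 (SE 0.15) and an unadjusted p of 0.0155. The highest Ifi27 was in CIE mouse 22, and its log2 fold change was 0.28 in the 8 libraries with neither marker high. Jak1, the receptor kinase that is the most abundant member, had 0.06 (SE 0.07). Rsad2, the antiviral enzyme viperin, had the lowest value, -1.60 (SE 0.85), and was at 133.9 CPM or more in the 4 libraries of high Alas2 and at most 9.68 CPM in the others. Without the high-Alas2 libraries Rsad2 was at 0.27. The median of the interferon list was 0.25 in the 8 libraries with neither marker high.

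Among NF-kB and inflammatory genes, 13 of 18 were higher in CIE, with a median of 0.051. Serpina3n, a protease inhibitor of reactive astrocytes, had a log2 fold change of 0.47 (SE 0.22) and an unadjusted p of 0.0469, and it was at 0.24 in the 8 libraries with neither marker high. Nfkbia, the inhibitor that holds NF-kB in the cytoplasm, had 0.05, and Nfkb1, which encodes an NF-kB subunit, had -0.17. Outside the lists, Ltbr, the lymphotoxin receptor that feeds NF-kB, was at 2.52 to 10.4 CPM in CIE and 0.49 to 4.47 CPM in Air. Its log2 fold change was 0.85 (SE 0.26), with an unadjusted p of 0.00314, and 8 of 10 CIE libraries were above every Air library. Ltbr lies near the cutoff of the filter on low counts and was kept mostly by its CIE libraries, so its p rests on that selection. It was tested in 25 of the 34 other settings, and not in the 8 libraries with neither marker high. Il10rb, a receptor chain for interleukin 10 and interferon lambda, was lower in CIE, at -0.49 (SE 0.15) with an unadjusted p of 0.00393, and every CIE library was below its Air median.

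**Figure D5:**
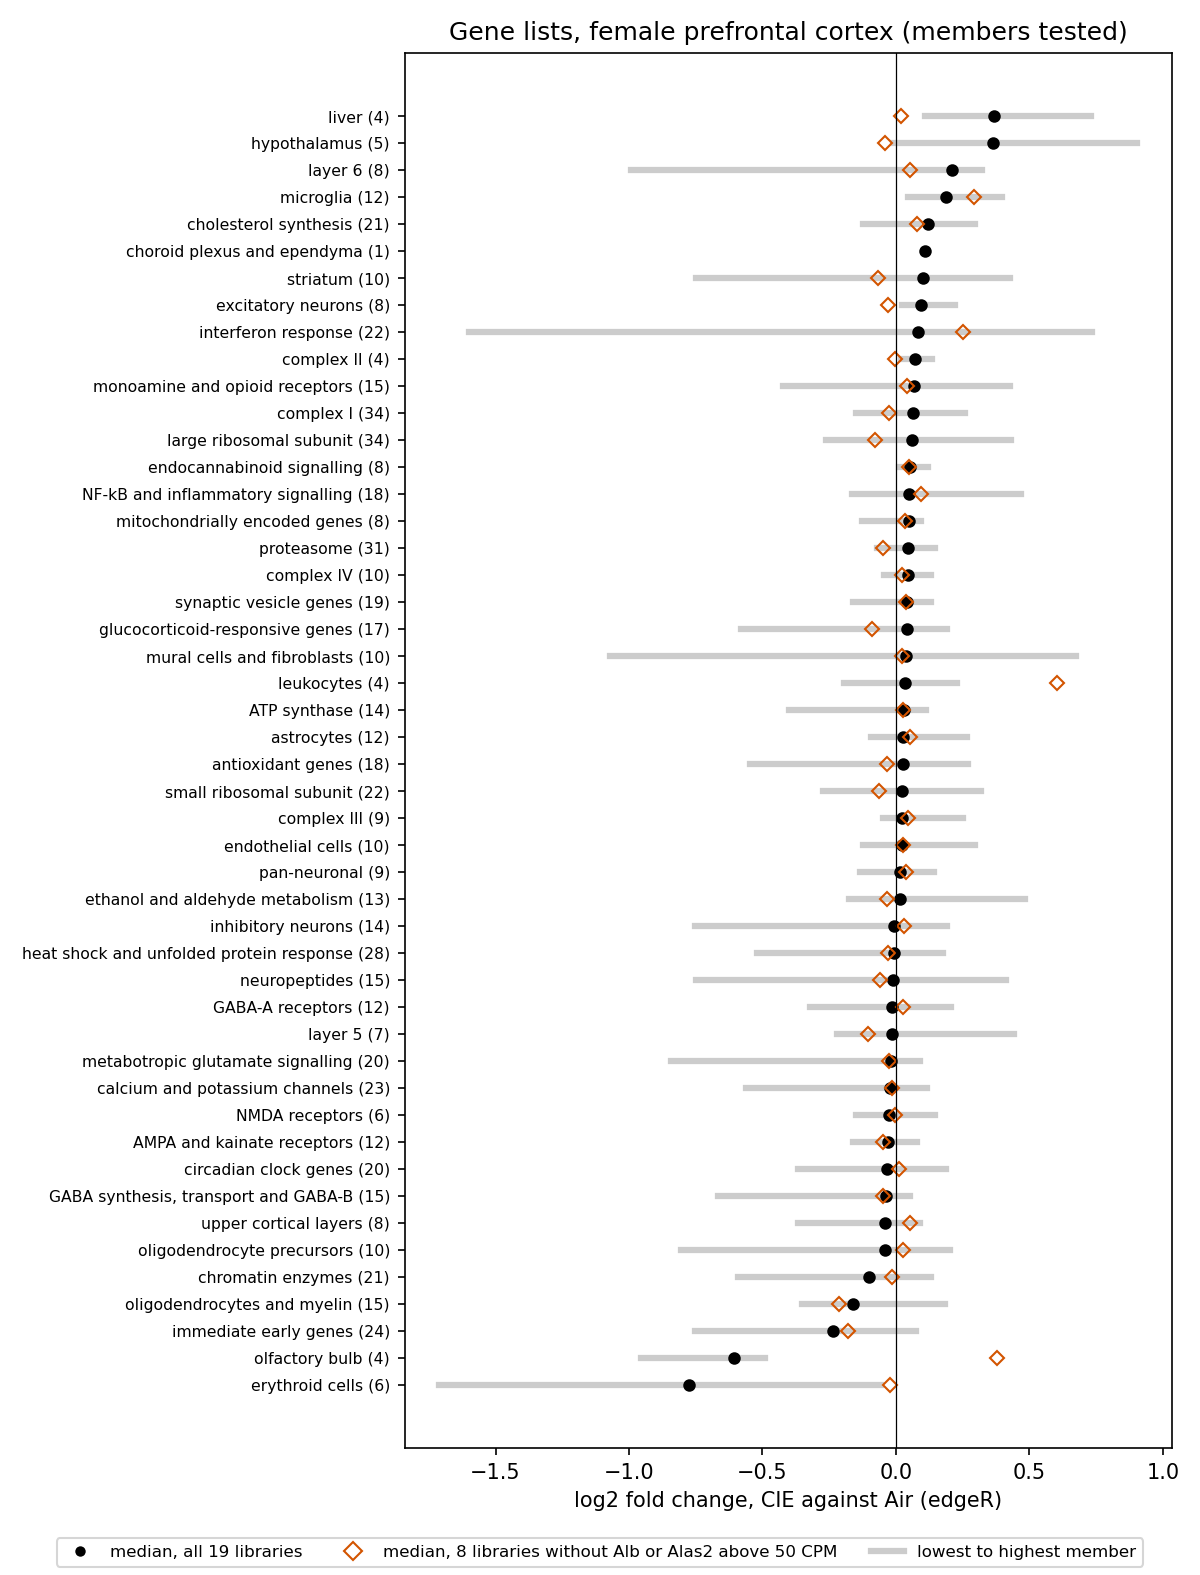
Each line is a gene list with the number of members tested, the black point the median log2 fold change of CIE against Air over all 19 libraries, the grey bar its lowest and highest member and the open diamond the median over the 8 libraries with neither Alb nor Alas2 above 50 CPM. The medians run from -0.78 for erythroid genes to 0.37 for liver genes, both near 0 at the diamonds, and the interferon list moves from 0.082 to 0.25.

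Cell type markers of neurons and glia other than microglia had smaller or less stable medians. All 8 excitatory neuron genes were higher in CIE, with 0 at an unadjusted p under 0.05 and a median of 0.095, which was -0.031 in the 8 libraries with neither marker high. The kinase Camk2a had 0.07 and the layer 6 factor Tbr1 0.22. Tbr1 was at 45.3 CPM in Air mouse 40 and at 119.7 CPM or more in every CIE library, and the median of the list was 0.0069 without the 3 libraries of highest olfactory bulb markers. Of 14 inhibitory neuron genes 7 were higher and 7 lower, with a median of -0.0078. Adarb2, a marker of interneurons from the caudal eminence, had a log2 fold change of -0.75 (SE 0.35) and an unadjusted p of 0.0424, and it was at 328.3 CPM in Air mouse 40 and 127 CPM in CIE mouse 34. Without Air mouse 40 Adarb2 was at -0.20, and in the 8 libraries with neither marker high at -0.041. Cck, a peptide of interneurons and pyramidal cells, had 0.10, and Npy had 0.18. Astrocyte genes had a median of 0.028 with 8 of 12 higher. Aldh1l1 had 0.23, the glutamate transporter Slc1a2 -0.0070 and the gap junction gene Gja1 -0.09.

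Of 15 oligodendrocyte and myelin genes 12 were lower in CIE, with 0 at an unadjusted p under 0.05 and a median of -0.16. Mbp, the myelin basic protein, was at 315.4 to 671.6 CPM in CIE (median 431.8) and 372.4 to 815.3 CPM in Air (median 424.9), with a log2 fold change of -0.16 (SE 0.18). Mag, a glycoprotein of inner myelin, had -0.35 (SE 0.21), and Aspa, which breaks down N-acetylaspartate, had 0.13. The median was 0.019 without the 3 libraries of highest olfactory bulb markers and -0.21 without the libraries of high Alb or Alas2. Among precursor genes, Enpp6, a mark of newly forming oligodendrocytes, was at 1.29 to 7.33 CPM in CIE (median 3.31) and 3.35 to 9.28 CPM in Air (median 5.96). In 9 of 10 CIE libraries it was below the Air median, and its log2 fold change was -0.80 (SE 0.25), with an unadjusted p of 0.0042. Enpp6 was tested in 28 of the 34 other settings. It was not tested without the libraries of high Alb or Alas2, nor without the 3 libraries of highest olfactory bulb markers. The transcription factor Olig1 had -0.10 and the growth factor receptor Pdgfra 0.20, and the 10 genes had a median of -0.040, or 0.028 without the libraries of high Alb or Alas2.

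Receptors through which ethanol acts on synapses differed little. Of 12 GABA-A receptor subunits 6 were higher and 6 lower, with 0 at an unadjusted p under 0.05 and a median of -0.014. Gabra3 had a log2 fold change of 0.21 (SE 0.12) and Gabra2 had -0.16 (SE 0.08). Of 6 NMDA receptor subunits 2 were higher, with a median of -0.026. Grin1, the obligate subunit, had -0.13 (SE 0.08), Grin3a had 0.11 (SE 0.10) and Grin2b had -0.03 (SE 0.07).

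Cholesterol synthesis genes were mostly higher in CIE, 17 of 21, with 3 at an unadjusted p under 0.05 and a median of 0.12, where 50.4% of all genes tested were higher and 1.58% were higher at that p. Hmgcs1, which makes HMG-CoA, was at 170.2 to 262.8 CPM in CIE (median 223.6) and 112.8 to 207 CPM in Air (median 191.8). In 8 of 10 CIE libraries Hmgcs1 was above every Air library, and its log2 fold change was 0.29 (SE 0.10), with an unadjusted p of 0.00635. The lowest Hmgcs1 was in Air mouse 40, and the value was 0.21 without that mouse and 0.08 in the 8 libraries with neither Alb nor Alas2 high. Mvd, a decarboxylase of the same route (0.30), and Stard4, a carrier of sterols (0.21), had unadjusted p values of 0.0456 and 0.0266, and the reductase Tm7sf2 had -0.11. The median of the list was 0.080 in the 8 libraries with neither marker high and 0.056 without the 3 libraries of highest olfactory bulb markers. Over the 34 other settings its lowest value was 0.044.

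Complex I of the respiratory chain had 30 of 34 genes higher in CIE by small amounts, with a median of 0.063 and 1 gene at an unadjusted p under 0.05, Ndufa9 (0.12, SE 0.05, p 0.0322). Over all genes tested, 50.4% were higher and 1.58% were higher at that p. Ndufb9, the most abundant member, had 0.13 (SE 0.06), and Ndufa1 had -0.15 (SE 0.12). In the 8 libraries with neither marker high the median turned to -0.024. Chromatin enzymes were mostly lower, 17 of 21, with 2 at an unadjusted p under 0.05, where 2.63% of all genes tested were lower at that p. Their median was -0.10, but -0.015 without the libraries of high Alb or Alas2, -0.036 without the 3 libraries of highest olfactory bulb markers and 0.0050 without the high-Alb libraries. Kdm6b, a histone demethylase, was at 10.3 to 16.8 CPM in CIE and 11.7 to 40.8 CPM in Air, with a log2 fold change of -0.59 (SE 0.20) and an unadjusted p of 0.00737. Tet3, which oxidises methylcytosine, had -0.30 (SE 0.12) and an unadjusted p of 0.0198. Both were highest in Air mouse 40, without which Kdm6b was at -0.37 and Tet3 at -0.17, and in the 8 libraries with neither marker high they were at -0.31 and -0.14. The deacetylase Hdac11 had 0.06 and the acetyltransferase Kat2a 0.13.

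Of 13 genes of ethanol and aldehyde metabolism 8 were higher in CIE, with a median of 0.016. The median turned to -0.032 without the libraries of high Alb or Alas2. Aldh7a1, an aldehyde dehydrogenase of lysine breakdown, was at 43.3 to 91.1 CPM in CIE and 38.7 to 55.3 CPM in Air, with a log2 fold change of 0.28 (SE 0.12) and an unadjusted p of 0.0286. Its highest value was in CIE mouse 22, and the log2 fold change was 0.02 in the 8 libraries with neither Alb nor Alas2 high. Acss1, which turns acetate into acetyl-CoA, had -0.18, and the fatty acid synthase Fasn had 0.04.

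The largest list medians, in either direction, were those of the liver, hypothalamus, erythroid and olfactory bulb genes. The 4 liver genes tested of 26 listed had a median of 0.37. The summed level of all 26 was 72.5 to 2007 CPM in CIE (median 861.4) and 75.9 to 3258 CPM in Air (median 91.4). Trf, the iron carrier, is the most abundant of the 4 tested and is also made by oligodendrocytes, and it had 0.18 (SE 0.38). The 5 hypothalamus genes tested had a median of 0.37, with Hcrt (orexin) at 0.90 (SE 0.62), Pmch at 0.89 (SE 0.63) and Cartpt at -0.0095. The 6 erythroid genes tested were all lower in CIE, with a median of -0.78, and Bpgm had -1.11 (SE 0.53) and an unadjusted p of 0.048, but -0.11 in the 8 libraries with neither marker high. All 4 olfactory bulb genes tested were lower, with a median of -0.61, and Doc2g had -0.96 (SE 0.86) and Calb2 -0.51 (SE 0.54). In the 8 libraries with neither Alb nor Alas2 high, the medians were 0.020 for liver, -0.042 for hypothalamus, -0.023 for erythroid and 0.38 for olfactory bulb genes.

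The remaining genes of smallest p covered varied roles. Higher in CIE were H6pd (0.73, SE 0.19), which makes NADPH in the endoplasmic reticulum, Gstm6 (0.67, SE 0.19), a glutathione transferase, Samd15 (0.62, SE 0.18), Snrpb2 (0.23, SE 0.07), a splicing protein, Hint2 (0.31, SE 0.09), a mitochondrial hydrolase, Snx15 (0.29, SE 0.08), a sorting nexin, Zcchc17 (0.25, SE 0.07) and the chaperone subunit Pfdn4 (0.36, SE 0.11). H6pd, Samd15, Hint2, Snx15 and Pfdn4 were above the Air median in all 10 CIE libraries. Lower in CIE were Papola (-0.23, SE 0.06), a poly(A) polymerase, Ndp (-0.49, SE 0.13), the Norrin ligand of vessels, Dzip1l (-0.37, SE 0.10), a cilium protein, the heat shock protein Hspb1 (-0.52, SE 0.16), Zkscan14 (-0.49, SE 0.15), Rbm41 (-0.54, SE 0.17), Emid1 (-0.48, SE 0.15), the metal-responsive factor Mtf1 (-0.26, SE 0.08) and the synaptic scaffold gene Lin7a (-0.24, SE 0.08). Ndp, Hspb1 and Zkscan14 were below the Air median in all 10 CIE libraries. Their adjusted p values were 0.95 in edgeR. In the 8 libraries with neither Alb nor Alas2 high, Zcchc17 was at 0.060, Snrpb2 at 0.10, Pfdn4 at 0.12, Hint2 at 0.18 and Gstm6 at 0.97, and Lin7a was at -0.11, Zkscan14 at -0.15 and Emid1 at -0.27. The noncoding RNA 2810049E08Rik, named for having the second smallest p after its value was seen, had 0.70 (SE 0.16) and an unadjusted p of 0.00024.

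Single libraries moved the counts. The number of genes lower in CIE at an unadjusted p under 0.05 was 323 with all libraries, 164 without Air mouse 40 and 550 without CIE mouse 34, and edgeR called 0 genes at an adjusted p of 0.05 in each of the 19 fits that left out 1 mouse, with 321 to 791 genes at an unadjusted p under 0.05.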

How the data were processed

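TagSeq libraries of prefrontal cortex from 10 CIE and 9 Air females were compared. Per the submitters' processing notes, Bowtie2, SAMtools, HTSeq, limma 3.42.2 and GRCm38 (mm10) were used, and the authors deposited raw counts of reads per gene for each library. Log2 values from voom, deposited as well, were used only in an alternative. From each library 92 ERCC spike-ins and 5 summary lines were left out; reads not assigned to a gene were 27.9% to 30.1% of all reads. Of 55385 gene identifiers, 54487 were found in the annotation by full identifier, 657 after the version number was dropped, and 241 were not found.

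CIE was compared with Air in R 4.3.3 with edgeR 4.0.16 (TMM, filterByExpr with min.count 10 and min.total.count 15, quasi-likelihood test), with Benjamini-Hochberg adjustment over all genes tested and a threshold of 0.05. DESeq2 1.42.0 and limma 3.58.1 on the deposited log2 values were alternatives, with other normalizations and filters, covariates and left-out libraries. Sex-by-CIE and region-by-CIE terms were tested in edgeR. The regions come from the same mice, so the mouse was a replicate block in an alternative. Measures of libraries were compared by two-sided exact permutation over the 92378 ways to divide 19 mice. Counting error is included in the spread between mice.

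The named genes are those past the threshold in any setting that called 5 or fewer, the 12 protein-coding genes of smallest p in each direction, Alb and Alas2, the gene of smallest p for each interaction term, and in each gene list described the most abundant member, the member of smallest p in each direction and members with an unadjusted p under 0.05. Members and lists were chosen with earlier results of these data known. Which 20 of the 48 lists are described at length, and 5 of the alternatives, were chosen after the values were seen. Other genes are named where the text says so or as members of the library classes. Methods were tested on simulated data. Some genes that meet these rules are not reported here.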

Additional observations from a re-analysis of the deposited data

Results flagged for a closer look

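In each group, the highest and the lowest library were compared with the rest for every measure of a library and every named gene, and those are listed whose gap to the nearest other library, as a share of the whole range of the group, was above Dixon's critical value for a group of that size. Of 194 groups and measures examined, 38 values met this, where chance alone gives about 1 in 20 groups. They fall in 8 mice, with 12 in Air mouse 40 and 9 in Air mouse 28. No cause was tested for any of them.

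Air mouse 40 had the highest score on the first principal component of its group, 67.6. It was the highest Air library for the activity genes Egr1 (509.4 CPM), Nr4a1 (151.0 CPM) and Fosb (90.2 CPM), for the interneuron gene Adarb2 (328.3 CPM) and the olfactory bulb gene Doc2g (326.5 CPM), and for the chromatin genes Tet3 (101.7 CPM) and Kdm6b (40.8 CPM). It was the lowest Air library for the cortical genes Cck (421.5 CPM) and Tbr1 (45.3 CPM), the receptor subunit Grin3a (33.4 CPM) and the cholesterol enzyme Hmgcs1 (112.8 CPM).

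Air mouse 28 had the fewest reads on genes, 1117393, the lowest score on the second component, -41.8, and the highest Alb of its group, 457.3 CPM. It was also the highest Air library for B2m (153.0 CPM), H2-K1 (79.6 CPM), Trf (327.5 CPM), Tm7sf2 (22.4 CPM), Hcrt (23.3 CPM) and Cartpt (16.1 CPM).

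In Air mouse 26, C1qb was the highest of its group at 118.7 CPM and Ltbr the lowest at 0.488 CPM, and in Air mouse 27 Pdgfra was the highest at 26.5 CPM. Among CIE libraries, mouse 34 was the highest on the first component, 20.8, and for Doc2g (175.6 CPM), Adarb2 (127.0 CPM), Tet3 (58.4 CPM) and Nfkb1 (28.2 CPM). CIE mouse 23 was the highest for Alas2 (224.6 CPM), Bpgm (359.5 CPM) and Rsad2 (133.9 CPM). CIE mouse 22 was the highest for Aldh7a1 (91.0 CPM), Ifi27 (87.1 CPM) and Ltbr (10.4 CPM) and the lowest for Slc1a2 (1851 CPM). CIE mouse 33 was the highest for Hcrt (38.0 CPM) and Enpp6 (7.32 CPM).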

How the results depend on the processing

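The 34 alternatives for CIE against Air covered normalization, filter, tool, covariates and left-out libraries, 5 of them chosen after the data were seen. The number of genes past an adjusted p of 0.05 was 0 in the edgeR fit reported (517 at an unadjusted p under 0.05) and in every alternative but these: 2 in DESeq2 and 2 without the libraries of high Alb or Alas2 (Ccl5 and H2-D1), and 1 with a covariate for either marker high, 1 with a covariate for each marker and 1 without the high-Alb libraries (Ccl5). In the edgeR fits among these, Ccl5 came through the filter by its CIE libraries alone, and they were not run without the filter. Over all 19 libraries with no filter, its adjusted p in edgeR was 0.155. The genes higher in CIE at an unadjusted p under 0.05, 194 in the fit reported, were 498 with no filter and 115 without the high-Alb libraries, and those lower, 323 in the fit reported, were 807, and 154, 114 and 162 without the libraries of high Alb or Alas2, of high Alb and of high Alas2. With no filter more genes are tested and with fewer libraries each test has less to go on; beyond that the cause was not tested. Leaving out 1 mouse, the lower count ran from 164 without Air mouse 40 to 550 without CIE mouse 34. List medians stayed within 1 SD of the spread between libraries in 1624 of 1629 values, and 5 moved more: the GABA-A receptors to 0.05 without the high-Alb libraries, and complex II to -0.0025, the large ribosomal subunit to -0.078, the proteasome to -0.049 and the interferon response to 0.25 without the libraries of high Alb or Alas2. That SD is wide for some lists, so large moves count as within it: the olfactory bulb median ran from -1.32 to 0.53 and the hypothalamus median from -0.077 to 1.17. The sign was that of the reported fit in 19 of 34 settings for glucocorticoid-responsive genes, 21 for neuropeptides and 23 for inhibitory neurons. The interaction terms had 0 genes in each alternative run, the paired fits with mouse as replicate block (606 genes for amygdala and 851 for hypothalamus at an unadjusted p under 0.05) included. The sex-by-CIE term without the libraries of high Alb or Alas2 was not run, since all 18 male libraries have high Alas2.

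Of 90 named genes tested, 62 kept 1 sign in every setting, and 77 of 3017 values had the opposite sign; none of these genes passed the threshold, and the cause was not tested. With a covariate for each marker, the log2 fold changes were 0.0090 for Alas2, -0.29 for Alb, 0.084 for Rsad2, 0.0056 for Slc1a2, 0.039 for Grin2b, -0.067 for Trf and 0.30 for Lyz2. Without the high-Alas2 libraries, the log2 fold changes were 0.16 for Alas2, 0.27 for Rsad2, 0.053 for Cartpt, 0.21 for Doc2g and 0.41 for Lyz2. Without the libraries of high Alb or Alas2, the log2 fold changes were -0.0069 for Jak1, 0.13 for Rsad2, 0.054 for Nfkb1, -0.17 for Aspa, 0.057 for Olig1, -0.092 for Tbr1, 0.0053 for Slc1a2, -0.088 for Gabra3, 0.0036 for Grin2b, -0.012 for Grin3a, 0.16 for Ndufa1, -0.12 for Pmch, 0.14 for Calb2, 0.53 for Doc2g and 0.65 for Lyz2. Without the 3 libraries of highest olfactory bulb markers, the log2 fold changes were -0.0080 for Jak1, 0.016 for Mbp, -0.036 for Camk2a, -0.035 for Cck, 0.075 for Cartpt, 0.37 for Calb2, 0.48 for Doc2g and -0.062 for Cd74. Without the high-Alb libraries, the log2 fold changes were -0.0066 for Nfkbia, -0.081 for Aspa, 0.0041 for Olig1, 0.00039 for Slc1a2, 0.022 for Grin2b, 0.0056 for Grin1, -0.012 for Fasn, 0.17 for Calb2, 0.59 for Doc2g and 0.020 for Lyz2. Without the 4 libraries of high spike-ins, the log2 fold changes were -0.022 for Dusp1, 0.0026 for Ndufa1 and 0.21 for Cartpt. The Slc1a2 log2 fold change was 0.0087 with limma on the deposited log2 values, 0.0015 with no filter and 0.0074 with a covariate for mouse number. Leaving out 1 mouse each, the log2 fold changes ran for Calb2 from -0.88 to 0.032, for Camk2a from -0.011 to 0.10, for Cartpt from -0.11 to 0.16, for Cck from -0.0053 to 0.15, for Cd74 from -0.085 to 0.29, for Doc2g from -2.04 to 0.31, for Dusp1 from -0.039 to 0.24, for Grin2b from -0.068 to 0.0033, for Nfkbia from -0.0025 to 0.088, for Slc1a2 from -0.073 to 0.032 and for Tm7sf2 from -0.18 to 0.031. Depth limits the genes near 5 CPM, such as H2-T23, Enpp6 and Ccl5, whose libraries hold few reads each.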

Other observations

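Several gene lists that the comparison above does not go through had medians close to that of all genes tested, 0.000947 on the log2 scale. Among synaptic genes, 14 of 19 synaptic vesicle genes were higher in CIE with a median of 0.042, 5 of 12 AMPA and kainate receptor genes with -0.030, and 7 of 20 genes of metabotropic glutamate signalling with -0.017. The GABA synthesis, transport and GABA-B list had 6 of 15 higher with -0.036, the calcium and potassium channels 7 of 23 with -0.023, and the monoamine and opioid receptors 11 of 15 with 0.068. All 8 endocannabinoid genes were higher, with a median of 0.054, which was -0.028 without the 3 libraries of highest olfactory bulb markers. Neuropeptides had 6 of 15 higher and a median of -0.0095, circadian clock genes 8 of 20 with -0.035, and glucocorticoid-responsive genes 9 of 17 with 0.040.

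Lists of energy and protein supply had medians between -0.0085 and 0.073. These were 0.073 for complex II (4 of 4 higher), 0.022 for complex III (7 of 9), 0.044 for complex IV (6 of 10), 0.029 for ATP synthase (10 of 14) and 0.050 for the mitochondrially encoded genes (7 of 8). Ribosomal genes had 0.061 for the large subunit (23 of 34) and 0.022 for the small subunit (12 of 22), the proteasome 0.045 (25 of 31), heat shock and unfolded protein genes -0.0085 (13 of 28) and antioxidant genes 0.027 (10 of 18). Without the libraries of high Alb or Alas2 the median was -0.078 for the large subunit, -0.063 for the small subunit and -0.049 for the proteasome.

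Of the markers of layers, vessels and neighbouring tissue, pan-neuronal genes had a median of 0.017 (6 of 9 higher), upper cortical layers -0.039 (3 of 8), layer 5 -0.015 (3 of 7) and layer 6 0.21 (6 of 8). Endothelial genes had 0.021 (5 of 10), mural cells and fibroblasts 0.037 (6 of 10), striatum 0.10 (7 of 10), and in the choroid plexus and ependyma list only Ttr was tested, at 0.11. Without the libraries of high Alb or Alas2 the median was 0.053 for upper layers and -0.105 for layer 5. There it was 0.052 for layer 6 and -0.069 for striatum. Without the 3 libraries of highest olfactory bulb markers it was 0.14 for layer 5, 0.35 for layer 6 and 0.038 for striatum.

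Reads on 4 Y-chromosome genes were counted in the female libraries of high Alb. They numbered 10 to 43 in those 8 libraries (median 31.5) and 0 to 6 in the 11 others (median 1), and the 18 male prefrontal libraries had 349 to 631. Air mouse 40, in which both Alb and Alas2 were high, had the fewest of the 8. Where these reads came from was not tested.

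Libraries with Alb or Alas2 above 50 CPM came from the same 11 mice in all 3 regions, but which gene was high differed between regions of a mouse, and not every region of these mice was high. CIE mouse 25 had 223 CPM of Alb in prefrontal cortex, 1.97 CPM in amygdala and 117 CPM in hypothalamus, and its Alas2 was 7.25, 2.63 and 351 CPM. Air mouse 29 had 2.98, 109 and 81.5 CPM of Alb in the same order, and 299, 259 and 276 CPM of Alas2. CIE mice 21, 24, 32 and 34 and Air mice 27, 30, 37 and 39 were below 50 CPM for both genes in all 3 regions.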
